A study of Solanum lycopersicum with 27 samples.

Results

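A group of 160 tomato genes, of 34075 in the deposited table, was examined that was higher in wild-type fruit at 34 than at 25 days post anthesis (dpa), low in the mutant dml2-3 and near the wild-type level in the mutant rin-1. The genes were chosen by measured values: the group mean FPKM (fragments mapped to a gene, relative to its length and to the library total) in 6 of the 9 groups, taken as log2(FPKM + 1). A gene had to reach 5 FPKM in wild type (WT) at 34 dpa and to be higher there than at 25 dpa by at least 1. It had to be lower in dml2-3 than in WT at 34 dpa by at least 1, and not lower in rin-1 than in WT by 0.5 or more. In the double mutant rin/tdr4-1 it had to be less than 1 higher at 34 than at 25 dpa. Of 11589 genes at 5 FPKM or more, 959 met the condition on the rise in WT, 764 of these the condition on dml2-3, 190 of these that on rin-1, and 160 also that on rin/tdr4-1. The 3 mutant conditions and the WT rise are therefore described here without a test, and tests are kept to comparisons in which at least 1 group was not used for the choice. Where the other group was used, the choice favours a direction, and p-values there are no independent test of it.

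Total RNA of tomato (Solanum lycopersicum) fruits was sequenced in 27 libraries, 3 for each of 9 groups, all of the cultivar Ailsa Craig and without treatment. At 34 dpa, the breaker stage by the labels, the groups were the mutants dml2-3, rin/tdr4-1, rin-1, nor-1 and tdr4-1, and WT. At 25 dpa they were dml2-3, rin/tdr4-1 and WT. The labels name 1 allele of each mutated gene and give no allele number for rin in the double mutant. They give no second line of any genotype and nothing on whether replicates are separate plants. P-values thus measure only the spread between libraries. The 34 dpa groups are matched in age by their labels, and whether the mutant fruits had reached the same stage as WT is not given there.

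Tomato is a climacteric fruit, in which ripening brings a burst of ethylene, carotenoid synthesis, softening and sugar and acid changes, with large shifts in gene expression. DML2 is a DNA demethylase that removes 5-methylcytosine in ripening fruit, and many ripening gene promoters lose methylation with it. RIN and TDR4 (also called FUL1) are MADS-box transcription factors that can bind DNA in a common complex, and NOR is a NAC transcription factor needed for normal ripening. The files do not pair identifiers with gene names, and none of the 34075 identifiers was found in the reference table of 41476 genes, so genes are given by identifier alone, no role is given for any of them, and the mutated genes themselves were not checked. No sequence is shown for the same reason.

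The number of reads behind each library is unknown, since FPKM keeps no counts and low values showed no steps of single reads. Columns summed to between 863193 and 1122755 FPKM, and the 100 most abundant genes took between 22.0% and 47.5% of a column. Library 3 of dml2-3 at 25 dpa stood apart from the other 2 of its group, with a correlation over all genes of 0.965 with each, against at least 0.992 within every other group. Results that rest on it are given with and without it. In whole fruits, fewer cells of a type and less RNA per cell cannot be told apart.

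Membership depended on the scaling of the libraries. After division by size factors (median of ratios, 0.715 to 1.23), 247 genes met the conditions, and 118 of them were among the 160. Some genes lay close to a limit. On the log2(FPKM + 1) scale, the WT difference was 1.02 in Solyc11g066830.2, just inside, and 0.99 in Solyc01g097030.3, just outside. For dml2-3 against WT the nearest genes were Solyc04g080550.4 at -1.01 and Solyc03g123600.4 at -0.96. For rin-1 they were Solyc12g089210.2 at -0.49 and Solyc03g113100.3 at -0.50. For the double mutant between the ages they were Solyc09g092500.1 at 0.94 and Solyc09g059950.3 at 1.00. For the level in WT at 34 dpa they were Solyc05g052950.4 at 5.57 FPKM and Solyc01g102910.4 at 4.94 FPKM.

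Together the 160 genes took a larger share of FPKM at 34 dpa in rin-1, nor-1, tdr4-1 and WT than in the other groups. Their share of all FPKM at 34 dpa was 0.970% ± 0.0230 in dml2-3, 1.36% ± 0.0140 in rin/tdr4-1, 9.85% ± 0.0979 in rin-1, 13.2% ± 0.498 in nor-1, 11.5% ± 0.156 in tdr4-1 and 8.82% ± 0.333 in WT (mean ± SD over 3 libraries, n = 3, as for all FPKM means that follow). At 25 dpa it was 1.63% ± 0.513 in dml2-3, 1.53% ± 0.0279 in rin/tdr4-1 and 1.01% ± 0.00914 in WT. A few genes weigh heavily in these shares. The 2 most abundant in a library held 29.6% to 33.3% of the sum of the 160 in WT at 34 dpa. In dml2-3 at 34 dpa the 2 most abundant held 34.4% to 36.0%. The median gene of the group had a level of 16.1 ± 0.243 FPKM in dml2-3 and 28.1 ± 0.323 FPKM in rin/tdr4-1 at 34 dpa, against 85.4 ± 4.86 FPKM in WT. It was at 83.7 ± 2.06 FPKM in rin-1, 74.9 ± 1.69 FPKM in nor-1 and 95.9 ± 2.41 FPKM in tdr4-1. The low levels in dml2-3 at 34 dpa, the high ones in rin-1 and the difference between the WT ages follow from the choice of the genes. The low level in rin/tdr4-1 at 34 dpa is favoured by it, through the limits on the stage differences there and in WT. The levels in nor-1, in tdr4-1 and in dml2-3 at 25 dpa do not enter it.

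**Figure D1:**
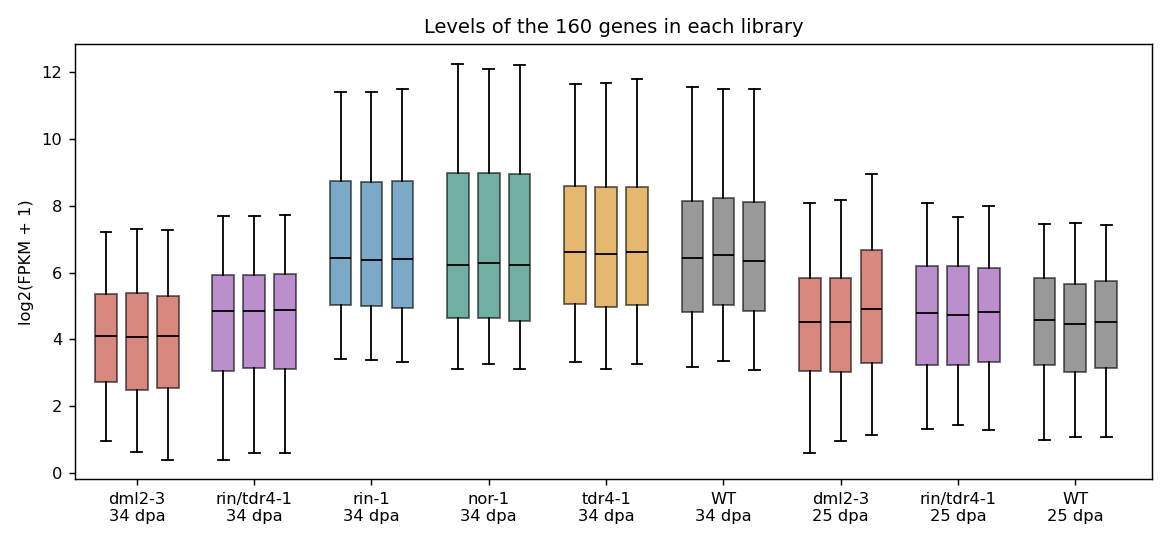
Levels of the 160 genes in each of the 27 libraries, as log2(FPKM + 1), with 3 boxes a group. Lines mark medians, boxes the quartiles and whiskers the 5th and 95th percentiles. Medians lie between 4.07 and 4.11 in dml2-3 at 34 dpa and between 6.35 and 6.52 in WT at 34 dpa, and library 3 of dml2-3 at 25 dpa lies above the other 2 of its group.

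The genes differed widely among themselves. In WT at 34 dpa they ranged from 5.57 to 15565 FPKM, with 17 at 1000 FPKM or more and 13 under 10 FPKM. Over the genes, the median log2 difference between WT at 34 and at 25 dpa was 1.68 (range 1.02 to 9.21), and it was 3 or more in 28. The median log2 difference between dml2-3 and WT at 34 dpa was -2.07 (range -8.46 to -1.01), and it was -3 or lower in 50. In rin-1 the median difference from WT was 0.03 (range -0.49 to 3.00). There 118 genes lay within 0.5 of WT and 21 lay at least 1 above it. As background for these ranges, all 11589 genes at 5 FPKM or more in WT at 34 dpa were taken. Their medians were -0.27 for WT between the ages, 0.27 for dml2-3 and 0.08 for rin-1 against WT. Of the 11589 genes, 217 had a WT difference between the ages of 3 or more, and 271 lay at -3 or lower in dml2-3. In rin-1, 6387 of the 11589 lay within 0.5 of WT and 1465 lay at least 1 above it.

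The levels in the 2 low mutants at 34 dpa were also set beside WT at 25 dpa. In dml2-3 at 34 dpa, 79 of the 160 were within 0.5 of WT at 25 dpa on the log2 scale, 30 were at least 1 below it and 5 at least 1 above it, with a median of -0.37. Of the 11589 genes 7886 were within 0.5 of WT at 25 dpa, 784 were at least 1 below it and 558 at least 1 above it, with a median of -0.03. In rin/tdr4-1 at 34 dpa, 90 were within 0.5 of WT at 25 dpa, 13 were at least 1 below and 16 at least 1 above, with a median of 0.17. Of the 11589 genes 7688 were within 0.5 there, 747 were at least 1 below and 585 at least 1 above, with a median of 0.06. These pairs differ in age and genotype, and all of their groups were used for the choice.

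The gene with the highest level in WT at 34 dpa was Solyc06g076520.1. It was at 1238, 1305 and 1333 FPKM in the dml2-3 libraries, at 827, 817 and 892 FPKM in rin/tdr4-1 and at 16231, 16308 and 16639 FPKM in rin-1, against 17645, 12463 and 16588 FPKM in WT at 34 dpa. All dml2-3 and double mutant libraries thus lay under all of WT, and the rin-1 libraries within the WT range. At 25 dpa it was at 2346, 1951 and 2225 FPKM in rin/tdr4-1, against 886, 1018 and 1044 FPKM in WT, so that the double mutant had more of it than WT in the younger fruit and less in the older. Its near neighbour Solyc06g076570.4, with 3 identifiers between them, was the second highest. It averaged 151.5 ± 9.57 FPKM in dml2-3, 551.8 ± 24.4 FPKM in rin/tdr4-1 and 10101 ± 412 FPKM in rin-1, against 12494 ± 1282 FPKM in WT at 34 dpa.

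On the log2(FPKM + 1) scale, the largest WT differences between the ages were in Solyc03g117630.1 and Solyc03g113930.3. The linear ratio of the WT means was 958 in Solyc09g092690.3, whose WT mean at 25 dpa lay below 1 FPKM, and 748 in Solyc03g117630.1. Solyc03g117630.1 was at 2792, 2868 and 2862 FPKM in WT at 34 dpa, against 3.70, 4.06 and 3.63 FPKM in WT at 25 dpa. At 34 dpa it was at 7.56, 6.40 and 7.28 FPKM in dml2-3, at 7.06, 7.65 and 7.57 FPKM in rin/tdr4-1 and at 2275, 2269 and 2206 FPKM in rin-1. Here the rin-1 libraries, though within the limit of the choice, all lay below all of WT at 34 dpa. Solyc03g113930.3 averaged 37.1 ± 6.34 FPKM in dml2-3, 23.5 ± 2.14 FPKM in rin/tdr4-1 and 2477 ± 68.5 FPKM in rin-1, against 3015 ± 95.6 FPKM in WT at 34 dpa.

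**Figure D2:**
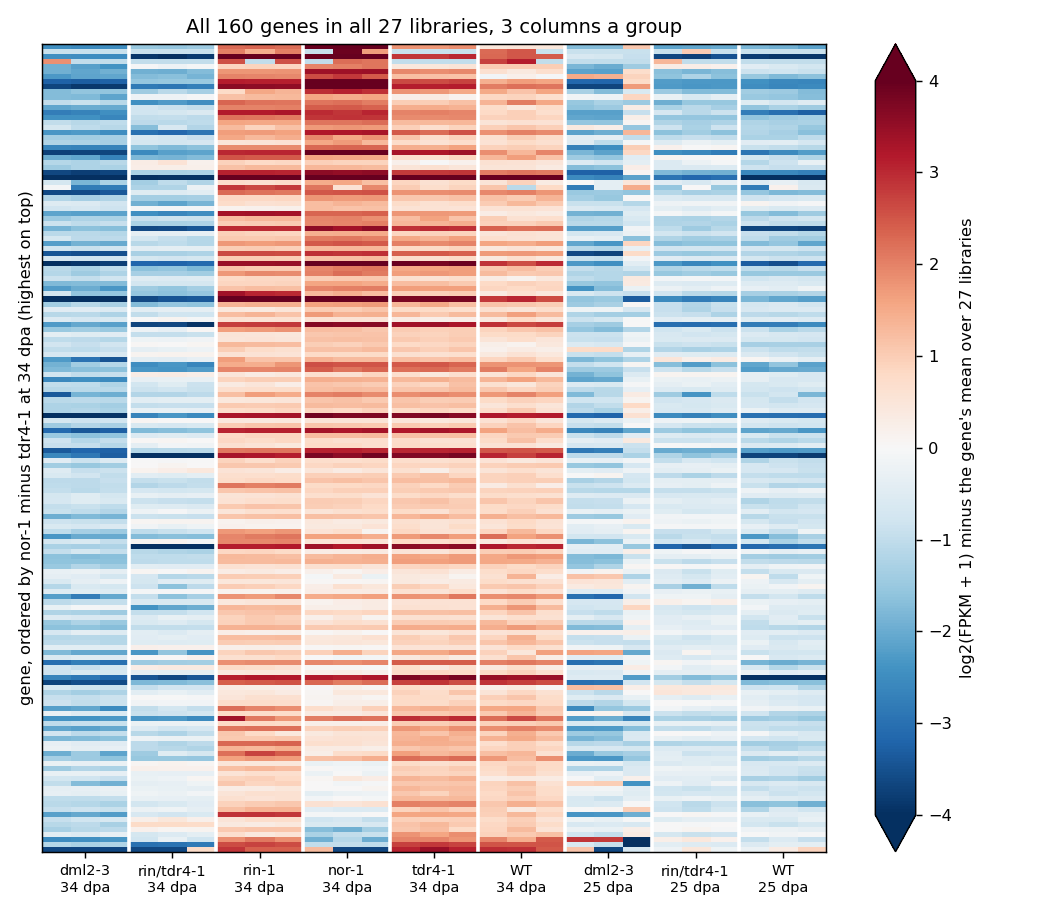
All 160 genes (rows) in all 27 libraries (columns, 3 a group), as log2(FPKM + 1) minus the mean of the gene over the libraries, with red above and blue below it. Genes are ordered by the difference of nor-1 and tdr4-1. The rin-1, nor-1, tdr4-1 and WT libraries of 34 dpa are mostly red, and the other 5 groups mostly blue, library 3 of dml2-3 at 25 dpa less so than its partners.

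Low levels in the mutant of DML2, but not in that of RIN, were set by the choice and describe the single mutants alone. Whether the genes need DML2 or RIN was not tested. In the double mutant rin/tdr4-1 at 34 dpa all 160 genes had a lower mean than in WT, with a median log2 difference of -1.69 (range -8.40 to -0.10), 122 of them by at least 1 and 12 by less than 0.5. Of all 11589 genes at 5 FPKM or more 3693 had a lower mean than in WT, 902 of them by at least 1, and the median was 0.34. The choice used each of these groups and bounds this contrast. It asked that the double mutant be less than 1 higher at 34 than at 25 dpa, and WT at least 1 higher. In every gene the difference from WT at 34 dpa thus had to lie below that at 25 dpa, which favours low values. The 11589 genes were not held to this. Set against rin-1, 159 of the 160 were lower in the double mutant, beside 3886 of the 11589 genes, with medians of -1.89 and 0.25. The choice bounds this contrast too, since it also kept out genes 0.5 or more lower in rin-1 than in WT. Between its own ages the double mutant had a median difference of -0.04, and 22 genes were at least 1 lower at 34 dpa, beside 486 of the 11589 genes, whose median was 0.04. At 25 dpa the double mutant lay at a median of 0.22 above WT, with 14 genes at least 1 higher and 2 at least 1 lower, beside 129 and 434 of the 11589 genes, whose median was 0.04.

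The double mutant was also compared with tdr4-1, a group that the choice did not use, to ask what a further mutation in RIN goes with where TDR4 is mutated. At 34 dpa 149 of the 160 genes were lower in rin/tdr4-1 than in tdr4-1 and 0 were higher (limma, adjusted p under 0.05 over 18906 genes), with a median log2 difference of -1.89 and 123 of them at least 2-fold lower. In the whole table of 18906 genes 14.9% were called lower and 64.5% higher, with a median of 0.57, and 1221 were called at least 2-fold lower. With size factors, which by construction bring the median gene close to 0, the median of the 160 genes was -2.52. The double mutant at 34 dpa was held to no large stage difference by the choice, which favours low values there. These calls and their p-values are thus no test of direction independent of the choice. Without adjustment, at p under 0.05, 0 of the 160 were higher, and 1 was called higher with quantile scaling.

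The largest of these differences were in genes abundant in all single mutants of the MADS-box and NAC factors. Solyc03g117630.1 was at 7.06, 7.65 and 7.57 FPKM in rin/tdr4-1, against 3176, 3195 and 3237 FPKM in tdr4-1, with a difference of -8.57 (log2, SE 0.09, limma adjusted p = 3.57e-25). Solyc11g020330.1 was at 11.2, 16.3 and 13.2 FPKM in rin/tdr4-1, against 5040, 4567 and 5101 FPKM in tdr4-1, with a difference of -8.41 (log2, SE 0.19, limma adjusted p = 1.72e-19). Neither pair of groups overlapped. Of the 11 genes not called, 2 (Solyc00g019750.1 and Solyc08g075190.1, named after their values were seen) were listed at 0 in every library of both mutants. Both were also listed at 0 in library 3 of WT at 34 dpa, with 12.03 and 16.2 FPKM for the first and 7.94 and 9.36 FPKM for the second in the other WT libraries.

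The one comparison between groups that the choice did not use at all was nor-1 against tdr4-1 at 34 dpa. The 160 genes went both ways in it. Of them, 37 were higher and 44 were lower in nor-1 and 79 were not called, with a median log2 difference of 0.02 (quartiles -0.49 and 0.51). Of all genes tested, 34.6% were called higher and 19% lower, and their median was 0.11, or 0 after size factors. The shares of the 160 were 23.1% higher and 27.5% lower, and the difference between the shares was not tested. The difference was at least 2-fold in 10 of the higher and 16 of the lower genes, beside 1753 and 704 of the 18906 genes tested. Size factors gave 29 higher and 59 lower genes about a median of -0.12, and quantile scaling 29 higher and 52 lower genes. Without library 3 of dml2-3 at 25 dpa, which enters the shared estimate of the spread, 56 were higher and 62 lower. The shares over all genes in that fit were not counted, so the added calls are not read as a trait of the 160.

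**Figure D3:**
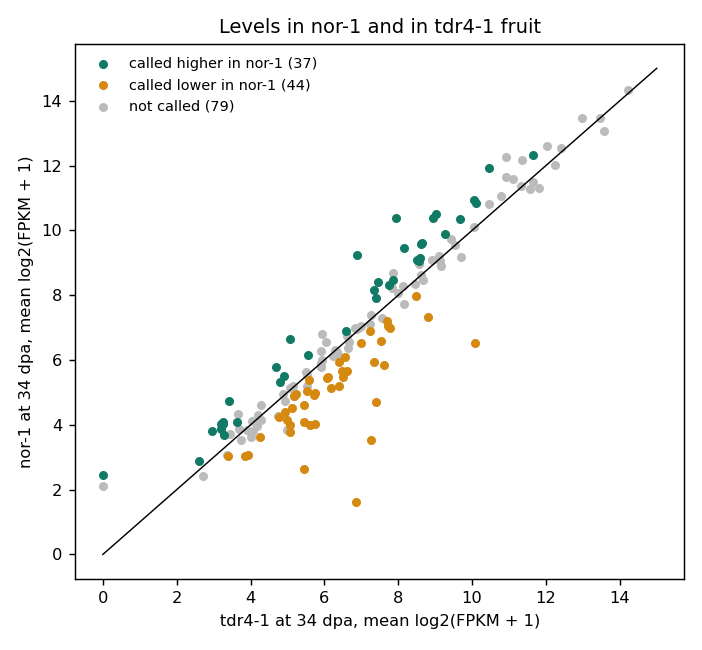
Mean log2(FPKM + 1) of the 160 genes at 34 dpa in nor-1 (vertical) against tdr4-1 (horizontal). The line marks equal levels. Genes called higher in nor-1 (37) lie above it, those called lower (44) below it, and 79 were not called.

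The gene furthest up in nor-1 was Solyc11g071830.2, at 1323, 1317 and 1397 FPKM in nor-1, against 242, 232 and 254 FPKM in tdr4-1. The log2 difference was 2.47 (SE 0.42, limma adjusted p = 3.56e-05), and the groups did not overlap. Its level in rin-1 at 34 dpa was 334 ± 10.2 FPKM, and in WT 95.1 ± 0.809 FPKM. Solyc09g092690.3 followed, at 588, 584 and 635 FPKM in nor-1, against 115, 111 and 127 FPKM in tdr4-1, a difference of 2.35 (SE 0.08, limma adjusted p = 2.39e-16). In the double mutant the same gene was at most 0.11 FPKM at 34 dpa, and in rin-1 at least 261 FPKM.

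Among the genes lower in nor-1, Solyc06g059720.3 was at 10.6, 10.5 and 10.3 FPKM in nor-1, against 149, 159 and 147 FPKM in tdr4-1, so that the log2 difference was -3.74 (SE 0.49, limma adjusted p = 1.20e-06). Its level in nor-1 was close to that in dml2-3 at 34 dpa, 9.38, 8.39 and 8.79 FPKM, whereas rin-1 held 138 to 146 FPKM and WT 128 to 130 FPKM. Solyc02g089660.2 was listed at 28.9, 0 and 0 FPKM in nor-1, against 104, 136 and 105 FPKM in tdr4-1. The groups did not overlap, and the fitted difference was -5.22 (SE 1.16, limma adjusted p = 0.000692). A value of 0 in such a table can be a failed estimate, and this gene was also listed at 0 in all dml2-3 libraries and in 2 of 3 double mutant libraries at 34 dpa.

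**Figure D4:**
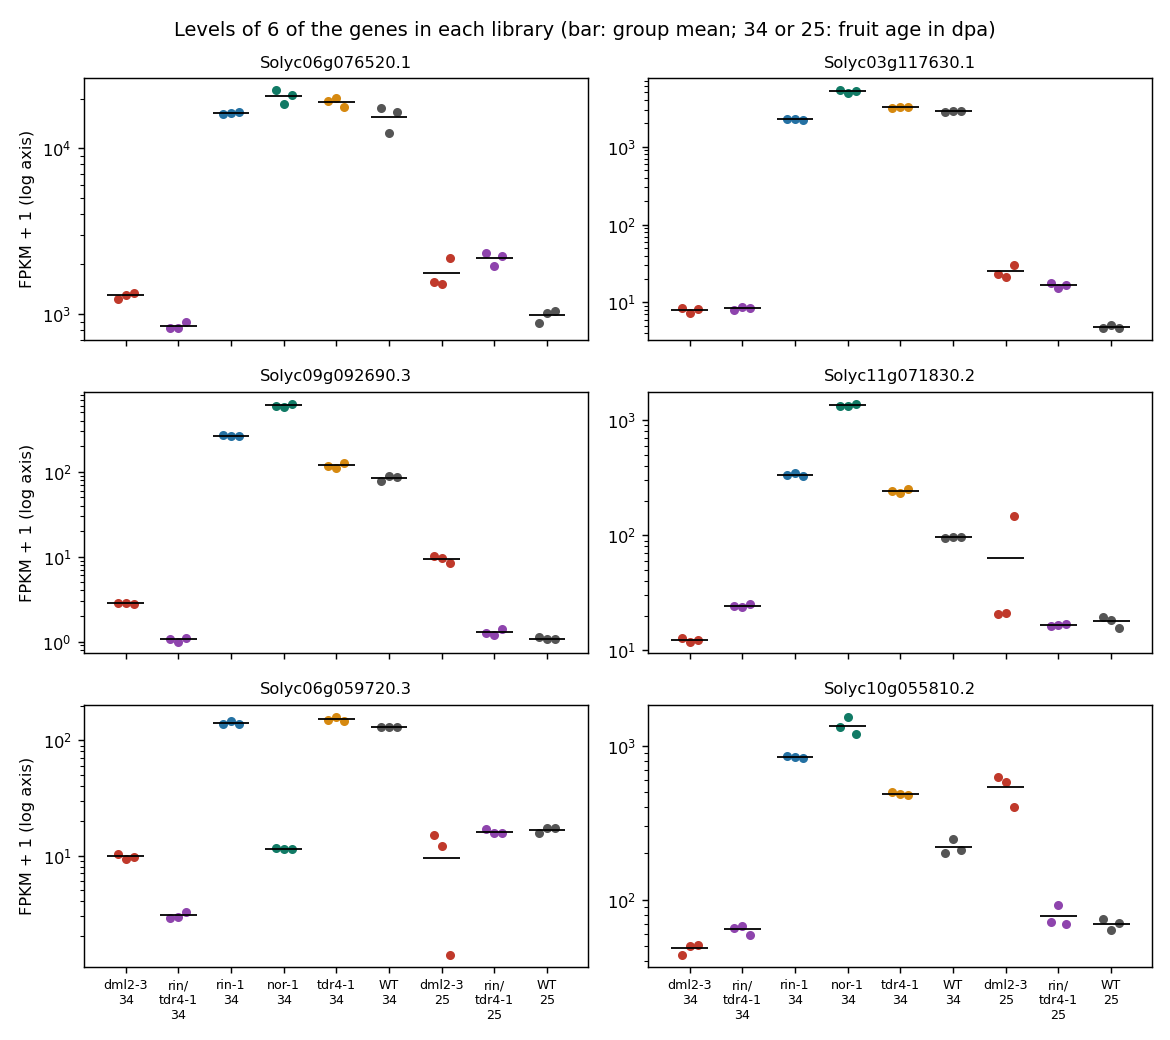
FPKM + 1 on a log axis for 6 of the genes in all 27 libraries, with points for libraries and bars for group means. The double mutant and dml2-3 are low at 34 dpa in all 6. Solyc06g059720.3 is low in nor-1 as well, while all the others have their highest group mean in nor-1. In Solyc06g076520.1 the nor-1 libraries overlap those of tdr4-1.

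The mutation in TDR4 alone was addressed by tdr4-1 against WT at 34 dpa. More of the 160 genes were higher than lower in tdr4-1: 42 were higher, 11 were lower and 107 were not called, with a median log2 difference of 0.20 (0.30 with size factors). Of all genes tested, 13.5% were called higher and 22.7% lower, with a median of -0.06. WT at 34 dpa was chosen high, which favours lower values in any mutant set against it. The difference was at least 2-fold in 9 of the higher genes and in 1 of the lower ones, Solyc08g075190.1, whose libraries overlapped through the 0 in WT. Over the 18906 genes tested, 675 were at least 2-fold higher and 177 at least 2-fold lower. Without library 3 of dml2-3 at 25 dpa 75 were higher and 19 lower. The shares over all genes in that fit were not counted, so the added calls are not read as a trait of the 160. The count of lower genes was 3 without library 2 of WT and 6 without library 1, and 7 without library 2 or library 3 of tdr4-1.

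Solyc02g093600.3 rose most in tdr4-1, to 1026, 1123 and 1059 FPKM, against 344, 261 and 316 FPKM in WT (log2 difference 1.81, SE 0.12, limma adjusted p = 1.66e-10). The groups did not overlap, and rin-1 and nor-1 held similar levels to tdr4-1, 952 ± 18.5 and 1104 ± 50.04 FPKM. Solyc09g008970.1 was at 2624, 2512 and 2775 FPKM in tdr4-1, against 959, 660 and 1023 FPKM in WT (1.61, SE 0.44, limma adjusted p = 0.00687). On the other side, Solyc02g078480.3 was at 45.5, 45.0 and 44.0 FPKM in tdr4-1, against 79.5, 101 and 72.5 FPKM in WT (-0.88, SE 0.26, limma adjusted p = 0.0118). Solyc10g084400.2 was at 159, 149 and 177 FPKM in tdr4-1, against 246, 308 and 216 FPKM in WT (-0.65, SE 0.20, limma adjusted p = 0.0160). Neither pair overlapped. Both calls were lost without library 2 of WT (limma adjusted p = 0.0603 and 0.0896), and the second also without library 2 of tdr4-1 (0.0589) or with quantile scaling (0.0502). Under the alternatives tried, the limma adjusted p of Solyc02g078480.3 lay between 1.93e-06 and 0.0603, and that of Solyc10g084400.2 between 0.000666 and 0.0896.

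In nor-1 against WT at 34 dpa, 62 genes were higher, 44 were lower and 54 were not called, with a median log2 difference of 0.11 (0.07 with size factors, 0.016 with quantile scaling, and 0.045 to 0.18 with 1 library left out). Of all genes tested, 33.2% were called higher and 28.1% lower, with a median of 0.04. The shares of the 160 were 38.75% higher and 27.5% lower, and the difference between the shares was not tested. WT at 34 dpa was chosen high, which favours lower values in nor-1. At 2-fold or more, 24 were higher and 12 lower, beside 2421 and 1019 of the 18906 genes tested. Size factors gave 51 higher and 46 lower genes, and quantile scaling 46 and 47. This comparison has its WT libraries in common with that of tdr4-1, so single genes are only set side by side. Solyc02g093600.3 differed from WT by 1.85 in nor-1 and by 1.81 in tdr4-1 on the log2 scale. Solyc10g055810.2 differed by 2.62 in nor-1 and by 1.16 in tdr4-1. Solyc06g059720.3 differed by -3.51 in nor-1 and by 0.23 in tdr4-1, where it was not called.

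The same 2 genes led upward as against tdr4-1. Solyc11g071830.2, at 1323, 1317 and 1397 FPKM in nor-1, was at 94.4, 96.0 and 94.8 FPKM in WT (log2 difference 3.81, SE 0.42, limma adjusted p = 7.09e-08). Solyc09g092690.3, at 588, 584 and 635 FPKM in nor-1, was at 76.5, 87.0 and 85.7 FPKM in WT (2.85, SE 0.08, limma adjusted p = 3.23e-18). All nor-1 libraries lay above all of WT. Downward, Solyc02g089660.2 was listed at 28.9, 0 and 0 FPKM in nor-1, against 94.9, 93.9 and 67.6 FPKM in WT (-4.78, SE 1.16, limma adjusted p = 0.00122). Solyc07g009500.3 was at 76.4, 133 and 73.9 FPKM in nor-1, against 1151, 811 and 1617 FPKM in WT (-3.64, SE 1.47, limma adjusted p = 0.0371), again with no overlap. The SE rests on the spread in all groups, and in the dml2-3 libraries of 25 dpa this gene was at 2147, 2045 and 1.18 FPKM. The call was lost without any single library of nor-1 or of WT at 34 dpa, without the filter on low values and with quantile scaling (limma adjusted p 1.89e-12 to 0.0915 over the alternatives).

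Whether dml2-3 fruit differed before the breaker stage was addressed at 25 dpa against WT. Of the 160 genes 51 were higher and 25 were lower in dml2-3 and 84 were not called, with a median log2 difference of 0.14. Of all genes tested, 26.7% were called higher and 27.8% lower, with a median of -0.00. WT at 25 dpa was chosen low, which favours higher values in dml2-3. The balance rested on library 3. Without it 56 genes were higher and 71 lower, against 33.1% higher and 29.9% lower over all genes, with a median over the 160 of -0.13, and 24 of the 25 genes called lower with it were among the 71.

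Library by library, the median difference from the WT mean at 25 dpa was -0.10 and -0.12 on the log2 scale in libraries 1 and 2 of dml2-3 and 0.46 in library 3. At least 2-fold above that mean were 19, 20 and 44 genes in the 3 libraries, and 21, 20 and 11 were at least 2-fold below it. In the WT libraries 0 genes were at least 2-fold above the mean and 1, in library 1, was at least 2-fold below it. Set against the other 2 of its group, library 3 was higher in 114 of the 160 genes, 46 of them at least 2-fold, with a median of 0.53. Over the 18906 genes tested it was higher in 8188, 1112 of them at least 2-fold, with a median of -0.06. What sets this library apart was not tested.

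**Figure D5:**
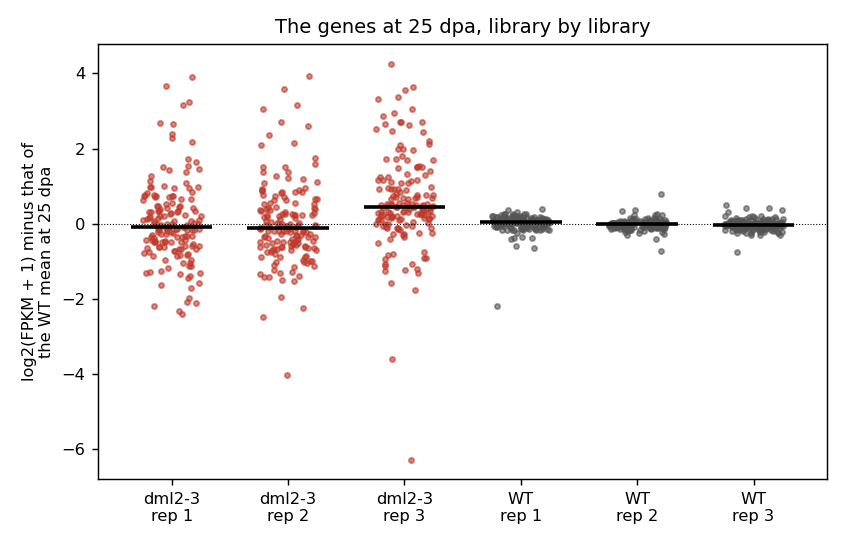
Difference of each of the 160 genes from the WT mean at 25 dpa, as log2(FPKM + 1), in the 3 libraries of dml2-3 and of WT at that age. Points are genes and bars medians. The bars of dml2-3 lie at -0.10, -0.12 and 0.46, and its points spread far more widely than those of WT.

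Some genes differed at 25 dpa in all dml2-3 libraries. Solyc09g092690.3 was at 9.25, 8.63 and 7.34 FPKM in dml2-3, against 0.13, 0.07 and 0.06 FPKM in WT (log2 difference 3.11, SE 0.08, limma adjusted p = 1.25e-17). On the log2(FPKM + 1) scale this understates the change, since WT is below 1 FPKM. Solyc03g113930.3 was at 192, 193 and 58.3 FPKM in dml2-3, against 10.4, 12.9 and 12.1 FPKM in WT (3.36, SE 0.27, limma adjusted p = 1.24e-09). Both were higher in every dml2-3 library. Among the lower genes, Solyc01g102610.3 was at 2.18, 2.27 and 3.22 FPKM in dml2-3, against 12.3, 10.9 and 11.6 FPKM in WT (-1.84, SE 0.10, limma adjusted p = 2.08e-12). Solyc02g084420.3 was at 0.27, 1.55 and 1.70 FPKM in dml2-3, against 5.76, 5.31 and 5.09 FPKM in WT (-1.63, SE 0.21, limma adjusted p = 1.01e-06). The groups did not overlap for either gene. The next identifier, Solyc02g084430.3, also belongs to the 160 and was at 0.43, 1.01 and 1.24 FPKM in dml2-3, against 2.75, 3.25 and 2.76 FPKM in WT (-1.07, SE 0.24, limma adjusted p = 0.000743).

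Between the ages within dml2-3, more of the genes fell than rose. At 34 against 25 dpa 6 were higher, 81 were lower and 73 were not called, with a median log2 difference of -0.48 (-0.41 with size factors), and 33 were at least 2-fold lower. Of all genes tested, 12% were called higher and 21.8% lower, with a median of -0.08, and 731 of the 18906 were called at least 2-fold lower. The dml2-3 libraries of 34 dpa were chosen low, which favours this direction. The calls and p-values here are thus no test of direction independent of the choice. Without library 3 of 25 dpa 26 were higher and 87 lower, against 15.1% higher and 29.3% lower over all genes, with a median over the 160 of -0.26. The comparison has the dml2-3 libraries of 25 dpa in common with that against WT at 25 dpa.

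Solyc10g055810.2 fell most, to 42.9, 49.0 and 49.8 FPKM in dml2-3 at 34 dpa, against 624, 583 and 398 FPKM in dml2-3 at 25 dpa (log2 difference -3.45, SE 0.14, limma adjusted p = 1.55e-13). At 25 dpa dml2-3 held more of it than WT did at either age, with WT at 199, 247 and 211 FPKM at 34 dpa and at 74.4, 63.0 and 69.2 FPKM at 25 dpa. Solyc09g008970.1 was at 19.1, 19.4 and 19.9 FPKM in dml2-3 at 34 dpa, against 74.0, 58.6 and 473 FPKM at 25 dpa (-2.65, SE 0.44, limma adjusted p = 9.39e-05), with the highest value in library 3. Without that library its difference was -1.71. Upward, Solyc12g042910.2 was at 8.29, 7.62 and 7.61 FPKM in dml2-3 at 34 dpa, against 4.47, 4.62 and 3.71 FPKM at 25 dpa (0.75, SE 0.08, limma adjusted p = 1.37e-07). Solyc07g061800.4 was at 5.31, 5.84 and 4.85 FPKM, against 3.36, 4.24 and 3.54 FPKM at 25 dpa (0.43, SE 0.14, limma adjusted p = 0.0199), with no overlap. The last call was lost in a fit to these 2 groups alone (limma adjusted p = 0.0673) and without library 1 of 25 dpa (0.0740) or library 2 of 34 dpa (0.0817), and the lowest value under any alternative was 0.000377. The call of Solyc09g008970.1 was lost in the fit to 2 groups (limma adjusted p = 0.0823, range 8.38e-08 to 0.0823).

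The 160 were set beside 574 genes that met the same conditions on WT and dml2-3. These were 0.5 or more lower in rin-1 than in WT at 34 dpa. They were not held to the condition on rin/tdr4-1, and 103 of them were at least 1 higher there at 34 than at 25 dpa. Of the 574, 571 passed the filter. In nor-1 against tdr4-1, 28 of the 571 were higher and 441 lower, with a median log2 difference of -1.001, beside 37 and 44 of the 160. In tdr4-1 against WT 44 were higher and 268 lower (median -0.33), beside 42 and 11 of the 160. In nor-1 against WT 16 were higher and 484 lower (median -1.33), beside 62 and 44 of the 160. In rin/tdr4-1 against tdr4-1 24 were higher and 485 lower (median -1.58), beside 0 and 149 of the 160. The condition on rin/tdr4-1, which favours low values there, was set for the 160 alone. In dml2-3 against WT at 25 dpa 214 were higher and 141 lower (median 0.14), beside 51 and 25 of the 160. In dml2-3 at 34 against 25 dpa 32 were higher and 239 lower (median -0.31), beside 6 and 81 of the 160. Both dml2-3 comparisons include library 3 of 25 dpa. The 574 genes were chosen to be low in rin-1, and the difference between the lists was not tested.

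A further 30 genes met all conditions on WT, dml2-3 and rin-1 but were at least 1 higher in rin/tdr4-1 at 34 than at 25 dpa. In dml2-3 at 34 against 25 dpa 0 of these were higher and 24 lower, with a median log2 difference of -1.17, beside 6 and 81 of the 160. In tdr4-1 against WT 15 were higher and 3 lower.

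By the chromosome number in the identifiers, 159 of the 160 genes were spread over all 12 chromosomes, and 1 was in the unplaced part. Chromosome 1 held 20 of them (12.5%, against 13.5% of the 11589 genes at 5 FPKM or more in WT at 34 dpa), and chromosome 2 held 19 (11.9%, against 10.4%). Chromosome 8 and chromosome 9 held 17 each (10.6%, against 7.16% and 7.25%). Chromosome 3 held 9 (5.62%, against 10.6%). There were 9 pairs of the genes with at most 4 identifiers between them, Solyc06g076520.1 and Solyc06g076570.4 among them, and 3 of the pairs were direct neighbours. One such pair was Solyc10g055810.2 and Solyc10g055820.3. The second of these was at 26.0, 25.7 and 1.18 FPKM in dml2-3 at 25 dpa, against 3.85, 4.37 and 4.41 FPKM in WT at 25 dpa, and so, in libraries 1 and 2 of dml2-3, it was high together with its neighbour. Its difference from WT did not pass the test (1.16, SE 0.58, limma adjusted p = 0.0984). Whether neighbours are near-identical copies that divide reads between them could not be seen from the files.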

How the data were processed

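The authors deposited 1 table of FPKM values with 1 column for each of 27 RNA-seq libraries of tomato fruits. Per the submitters' processing notes, the tools were Trimmomatic, STAR 2.5.4b, RSEM and DESeq2, whose roles, like the genome build, are not given in the sources used. FPKM scales by gene length and library total, so a gene reads lower where others take a larger share. Groups and replicate numbers came from the sample titles. The members and the lists beside them were chosen with earlier results of these data known.

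Genes that reached 1 FPKM in 3 or more libraries (18906 of 34075, all 160 members among them) were taken as log2(FPKM + 1) and fitted with limma 3.58.1 in R 4.3.3, with 1 mean per group over all libraries, a trend of variance with level and empirical Bayes moderation. Adjusted p-values are Benjamini-Hochberg values over the 18906 genes, and genes under 0.05 were called. Differences on this scale understate changes near 1 FPKM. Low FPKM values gave no read steps (the commonest step held at most 3.61% of them), so no count test was run.

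Named genes were the 2 highest in WT at 34 dpa, the 2 with the largest difference between the WT ages, the genes nearest each limit of the choice, and in each comparison the 2 largest called differences each way without overlap of libraries, or fewer where fewer were called. Alternatives were TPM, size factors, quantile scaling, a pseudocount of 0.1, no filter, the 2 groups alone, a replicate block and leaving out each library.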

Additional observations from a re-analysis of the deposited data

How the results depend on the processing

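The number of genes that met the conditions was 247 with size factors, 118 of them shared with the 160, and 158 to 169 with 1 library left out. Medians over the 160 genes changed sign in 3 settings: nor-1 against tdr4-1 was -0.084 with quantile scaling and -0.12 with size factors, and dml2-3 against WT at 25 dpa was -0.13 without library 3 of dml2-3 (-0.13 to 0.19 with 1 library left out). In the fit to 2 groups alone, 58 genes were higher in nor-1 than in tdr4-1, 29 were higher and 12 lower in dml2-3 than in WT at 25 dpa, and 2 were higher and 27 lower in dml2-3 at 34 than at 25 dpa. With quantile scaling 7 were lower in tdr4-1 than in WT, 1 was higher in rin/tdr4-1 than in tdr4-1, and 10 were higher in dml2-3 at 34 than at 25 dpa (11 with TPM). With 1 library left out, the counts ran from 28 to 56 higher in nor-1 than in tdr4-1, from 33 to 75 higher and 3 to 19 lower in tdr4-1 than in WT, from 21 to 71 lower in dml2-3 than in WT at 25 dpa, and from 5 to 26 higher in dml2-3 at 34 than at 25 dpa. The cause of these changes was not tested. The other 146 counts under alternatives stayed within 1.5 times those reported.

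Libraries with the same replicate number did not deviate together (correlations -0.08 to 0.10), so the numbers are not taken as pairs. With the replicate block 37 genes were higher and 44 lower in nor-1 than in tdr4-1, and 42 were higher and 10 lower in tdr4-1 than in WT.

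Read depth is unknown, so precision rests on 3 libraries a group. Differences of genes under about 1 FPKM cannot be read from this scale, and a gene that was not called is not shown to be equal.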
